A study of Mus musculus with 24 samples.

Results

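Respiratory complexes II to V, the part of the mitochondrial machinery that follows complex I, were described through 52 protein-coding genes out of 55536 genes in a table of read counts from the mouse ileum. The members were chosen by name. They were *Sdha*, *Sdhb*, *Sdhc*, *Sdhd*, *Cyc1*, *Cycs*, the genes with symbols starting *Uqcr*, *Cox4* to *Cox8* or *Atp5*, and *mt-Co1*, *mt-Co2*, *mt-Co3*, *mt-Cytb*, *mt-Atp6* and *mt-Atp8*, provided that at least 6 of the 24 libraries held at least 3 counts. Of 56 genes with such names, 52 met the count limit: 4 of complex II, 10 of complex III, cytochrome c (*Cycs*), 19 of complex IV and 18 of complex V. The nuclear genome encodes 47 of them and mitochondrial DNA (mtDNA) encodes 5. Just inside the limit were *Cox6a2* and *Cox8b*, each with at least 3 counts in 6 libraries and a median of 1 count. Just outside was *mt-Atp8*, the small accessory subunit of the ATP synthase membrane part, which reached 3 counts in 1 library, where it had 4. *Cox7b2*, *Cox8c* and a second gene model named *Atp5o* (ENSMUSG00000116933) had 0 counts in every library, which allows up to 3 counts per library, or 0.0701 to 1.71 CPM, counts per megaread. These limits cover counting error only.

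Male and female C57BL/6N mice gave the RNA, taken at the ileal end of the small intestine, with no engineered allele named for any group, and was sequenced as total RNA depleted of ribosomal RNA. Mice entered at 4 to 5 weeks of age and ate a control diet with 10% of energy from fat (CD) or a high-fat diet with 60% (HFD) for 20 weeks. One arm of each diet then received metformin in the drinking water at 50 mg per kg body mass per day for 10 weeks (CDmetf and HFDmetf), while CD and HFD animals received none. Each of the 4 groups held 6 libraries, 3 male (M1 to M3) and 3 female (F1 to F3), 1 library per mouse, and the study assigned cages to 3 blocks, which the replicate numbers may or may not follow. The diabetes-like state was induced by diet alone, and the tissue was sampled whole rather than as sorted cells.

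The complexes carry out oxidative phosphorylation on the inner mitochondrial membrane. Complex II (succinate dehydrogenase) passes electrons from succinate to ubiquinone, complex III passes them on to cytochrome c, and complex IV (cytochrome c oxidase) hands them to oxygen. Complexes III and IV pump protons as they do so, and complex V (ATP synthase) lets the protons flow back through a rotating ring to make ATP. In the gut the enterocytes of the villus, which absorb nutrients and pump ions, are rich in mitochondria, and metformin is known as a weak inhibitor of the preceding complex I.

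Libraries held 1829690 to 40606442 reads on genes. CD M3 stood apart because its 10 most abundant genes took 85.4% of its gene reads, and HFDmetf F2, the shallowest library, because they took 36.6%, against 9.22% to 19% elsewhere. A pair of libraries, HFD M2 and HFD F2, went against the sex on their labels: HFD M2 had 3355 *Xist* counts and 0 counts of Y-linked genes, and HFD F2 had 1 and 423. The 7 enterocyte markers and the 6 ileum markers of the lists were above 0 in all libraries. Summed CPM of the ileum markers ran from 298 in HFD M3 to 6198 in CD M2. Values below are CPM of effective library size, and log2 fold changes (logFC ± standard error) come from edgeR's quasi-likelihood test on 13505 genes with a false discovery rate (FDR) by Benjamini-Hochberg. Of the 52 members, 47 were abundant enough for that fit (44 nuclear, 3 mtDNA-encoded), and *Cox4i2*, *Cox6a2*, *Cox8b*, *mt-Co3* and *mt-Atp6* were not.

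The mtDNA-encoded members differed in how far their sequence is found a second time in the genome. Chromosome 1 carries annotated pseudogenes that are copies of mtDNA, and a read that matches both places equally well is not assigned by a counter that keeps unique reads. The first 100 bases of *mt-Atp6*, which encodes the proton channel subunit a of ATP synthase (chrM:7927-8026, + strand, GRCm38), are printed here beside the same stretch of its copy Gm10925 (chr1:24614552-24614651, − strand) because they are the same in every base.
mt-Atp6: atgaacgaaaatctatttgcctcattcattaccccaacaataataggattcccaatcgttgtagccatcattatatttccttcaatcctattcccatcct
Gm10925: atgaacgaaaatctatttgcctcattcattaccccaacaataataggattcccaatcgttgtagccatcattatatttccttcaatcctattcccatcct
*mt-Co1*, which encodes the catalytic subunit of complex IV, has a copy too, Gm29216, but only of a part of the gene, and that copy differs at its start. Below are 60 bases of *mt-Co1* (chrM:6381-6440, + strand) and of the copy (chr1:24616138-24616197, − strand), with the bases that differ in capitals.
mt-Co1: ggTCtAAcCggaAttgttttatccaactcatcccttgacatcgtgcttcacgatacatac
Gm29216: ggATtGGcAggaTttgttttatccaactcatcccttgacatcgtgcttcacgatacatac
Counted from 1 at the start of *mt-Co1*, these differences were T1056A, C1057T, A1059G, A1060G, C1062A and A1066T, and they were the only 6 in 492 aligned bases.

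Across whole genes, 579 of the 582 windows of 100 bases in *mt-Atp6* were found letter for letter in another gene's transcript. The figure was 582 of 585 for *mt-Co2*, whose product receives electrons from cytochrome c, and 684 of 685 for *mt-Co3*, the third mtDNA-encoded core subunit of complex IV. In *mt-Co1* 446 of 1446 windows were shared, and in *mt-Cytb*, the cytochrome b of complex III, 0 of 1045. The first 3 of these genes thus had almost no stretch of read length of their own, while *mt-Co1* and *mt-Cytb* did. Among nuclear members the shared part was largest in *Atp5g2* (34.7% of windows), *Atp5o* (27.9%) and *Cycs* (22.6%), so that their levels are also uncertain.

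Raw counts of these 3 genes were near 0 in most libraries. In 19 of 24 libraries *mt-Co2* had 0 to 14 counts, *mt-Co3* 0 to 8 and *mt-Atp6* 0 to 6. The other 5 libraries all carried replicate number 3. *mt-Atp6* had 268 counts in CD F3, 320 in CDmetf M3, 1073 in CDmetf F3, 248 in HFD F3 and 196 in HFDmetf F3. *mt-Co3* had 581, 539, 1936, 879 and 653 counts in the same order, and *mt-Co2* had 231, 348, 875, 177 and 179. Their chromosome 1 copies followed, with Gm28661, the copy of *mt-Co2*, at 508, 485, 1714, 493 and 251 counts in those 5 libraries and at most 18 elsewhere. These 5 libraries held 18233728 (CD F3) to 40384234 (CDmetf F3) reads on genes. Of similar depth were CD M3 and HFD F1, at 22413162 and 40606442 reads, and all other libraries held 11512963 or fewer. CD M3 had 3, 4 and 2 counts of *mt-Co2*, *mt-Co3* and *mt-Atp6*, and HFD F1 had 14, 8 and 3. The counts of these genes give no level of their RNA, and the reason for the difference between libraries was not tested.

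**Figure D1:**
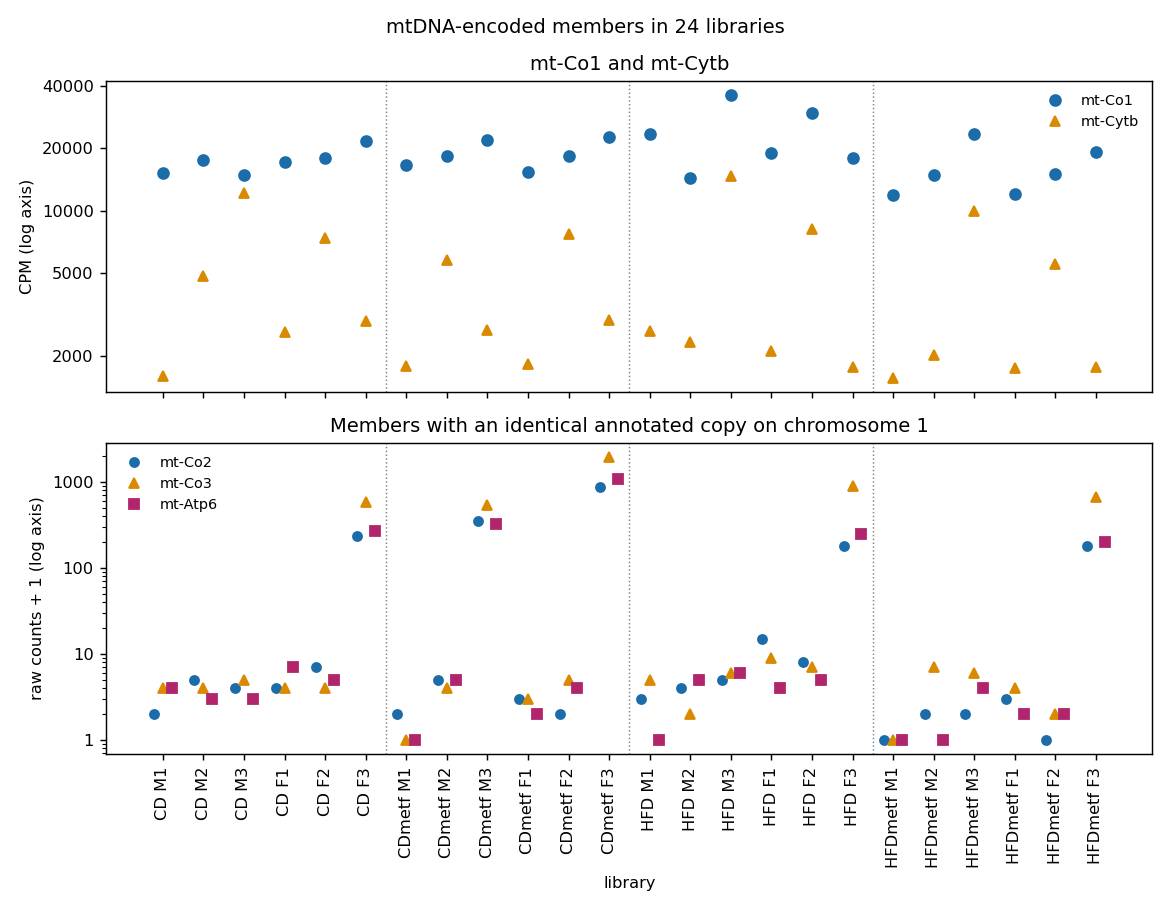
The 5 mtDNA-encoded members in each of the 24 libraries. The upper panel gives CPM of mt-Co1 and mt-Cytb and the lower panel raw counts plus 1 of mt-Co2, mt-Co3 and mt-Atp6, both on log axes, with groups divided by dotted lines; the lower panel shows 5 replicate-3 libraries at 177 to 1936 counts and all others at 14 or fewer.

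*mt-Co1* (ENSMUSG00000064351, chrM:5328-6872) was by far the most abundant member, at a median of 11590 CPM per kb over all libraries, and *mt-Cytb* (ENSMUSG00000064370, chrM:14145-15288) came next at 2313 CPM per kb. Among nuclear members the highest median level per kb was 317 for *Cox8a*, a small membrane subunit of complex IV, followed by 286 for *Atp5a1* and 233 for *Atp5b*, the alpha and beta subunits that form the catalytic head of ATP synthase. *Sdha*, the flavoprotein that oxidises succinate, reached 73.5 CPM per kb, *Sdhd* 68.6, *Sdhb*, the iron-sulfur subunit, 59.9, and *Sdhc* 36.4, so that the 4 subunits of complex II lay within a narrow range. In complex III the nuclear subunits ran from 42.6 for *Uqcrq* to 114 for *Uqcrb*. Complex V was less even. Its subunits e and g (*Atp5k* and *Atp5l*), which help to pair ATP synthases, had 5.64 and 1.55 CPM per kb, and the lowest of its other nuclear members was *Atp5s*, a coupling factor, at 2.42. Lengths were of all annotated exons of a gene, so genes with long unused exons read low on this scale.

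The isoforms of complex IV that are known from other tissues were low. *Cox6a2* and *Cox8b*, the forms of heart and skeletal muscle, had medians of 0.161 and 0.182 CPM per kb, against 160 for the ubiquitous *Cox6a1* and 317 for *Cox8a*. *Cox4i2*, the form of the lung, induced by low oxygen, had 0.749 against 119 for *Cox4i1*. *Cox6b2*, the testis form, had 1.22 against 154 for *Cox6b1*. *Cox7a1*, the muscle and brown fat form, was the exception with 39.3 CPM per kb, below *Cox7a2* at 67.3. Its CPM ran from 10.0 through a median of 18.1 to 31.1 in CD, from 11.9 through 13.7 to 29.1 in CDmetf, from 12.4 through 28.3 to 52.3 in HFD and from 3.99 through 24.1 to 32.5 in HFDmetf. The 4 groups overlapped widely.

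By the median, levels of the nuclear members varied slightly less between mice than those of all genes tested, while complex IV was nearly level with all genes. The standard deviation of log2 CPM over the 24 libraries had a median of 0.336 over the 44 fitted nuclear members, against 0.402 over all genes tested. By complex the median was 0.290 for II, 0.300 for III, 0.401 for IV and 0.330 for V. *Sdha* was among the steadiest at 0.173, with *Atp5g2*, which encodes a subunit of the rotating c ring, at 0.170. The most variable were *Cox6b2* at 1.27, *Atp5k* at 1.22, *Cox6a1* at 0.844 and *Cox7a1* at 0.833.

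Seen library by library, many nuclear members were high or low at once. The 44 fitted nuclear members lay at a median of 0.70 log2 units above their own means in HFD F2, with 44 of 44 above, and 0.41 above in HFD M3, with 39 of 44. At the low end were HFDmetf F2 at −0.45, with 5 of 44 above their means, and CD M3 at −0.30, with 7 of 44. The other 20 libraries lay between −0.21 and 0.24. The 4 complexes shared these positions: in HFD F2 the medians were 0.60 for complex II, 0.56 for III, 0.80 for IV and 0.62 for V. Summed CPM of the 7 enterocyte markers was 31910 in HFD F2, 36250 in HFD M3, 5783 in HFDmetf F2 and 10704 in CD M3, but the highest sum, 41882, was in HFD M1, where the members lay at −0.03, and HFDmetf M1 had a sum of 6757 with the members at −0.21. The ileum markers were at their lowest in HFD M3. Their part in these levels was not tested, and in a whole tissue fewer cells of a type cannot be told apart from less RNA per cell.

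**Figure D2:**
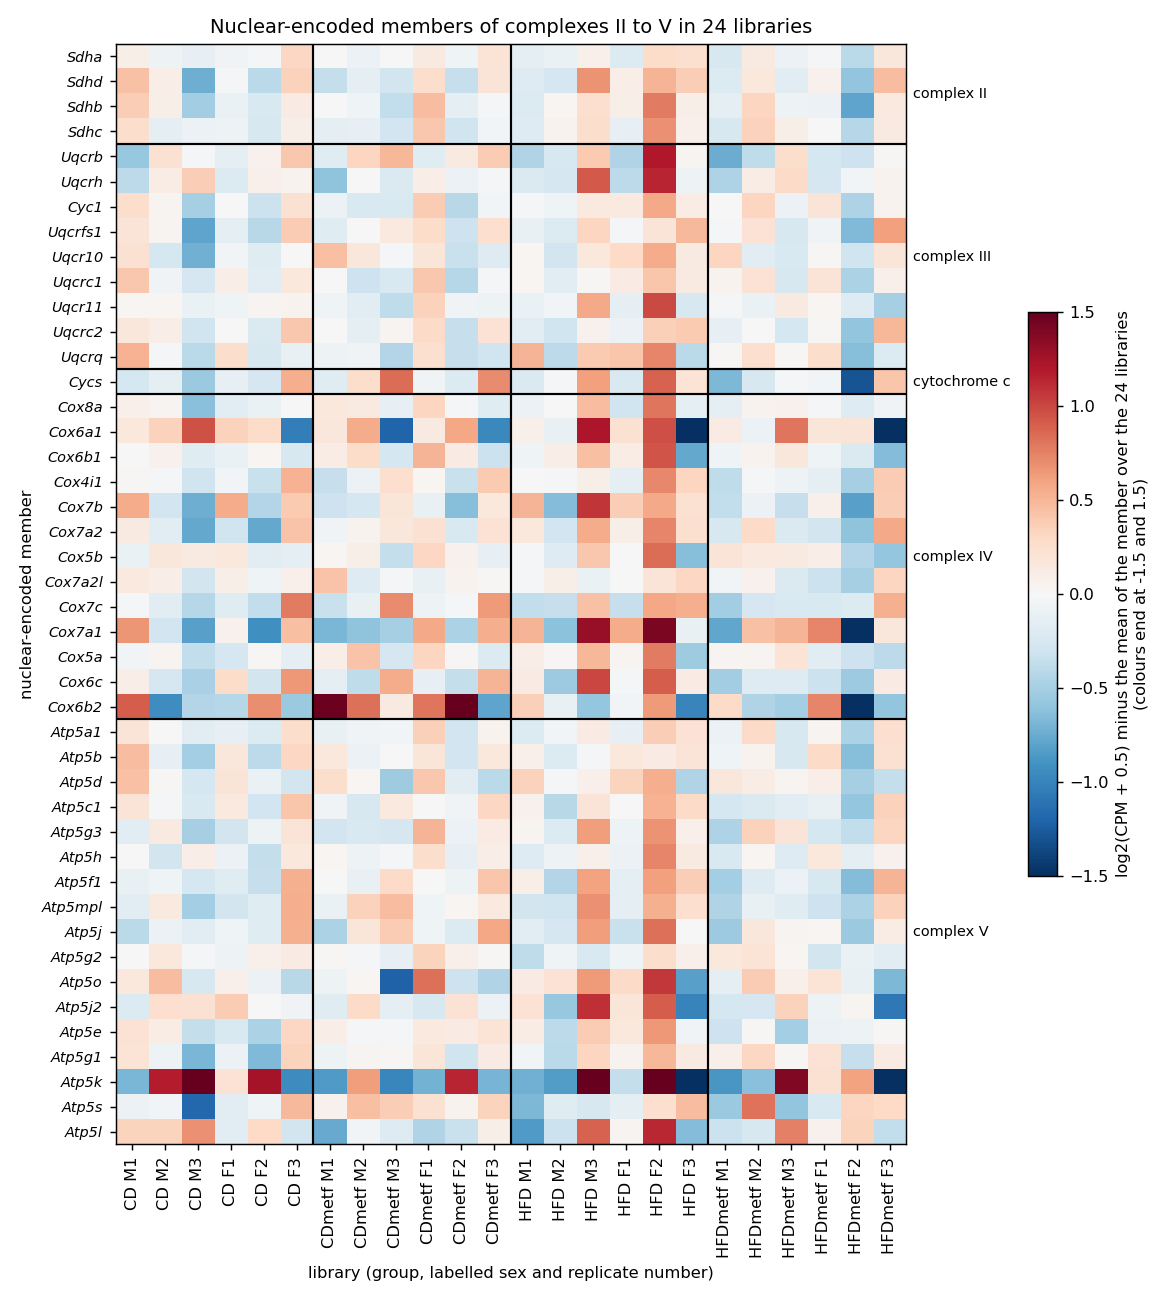
Log2(CPM + 0.5) of the 44 fitted nuclear members minus each member's own mean over 24 libraries. Columns are libraries by group, lines are members by complex and colours end at ±1.5; HFD F2 is above the mean in all 44 members and HFDmetf F2 in 5.

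The first question was how the complexes differed between diets in untreated mice (HFD vs. CD). Most members were slightly higher in HFD, but none passed FDR 0.05, and the size of the shift depended most on 1 library, HFD F2. The logFC was above 0 for 42 of 47 fitted members, with a median of 0.18 and a range of −0.35 to 0.69, while 49% of all genes tested were above 0, with a median of −0.004. All 4 members of complex II and all 10 of complex III were on the higher side, with 13 of 15 in complex IV and 14 of 17 in complex V. Medians were 0.19, 0.18, 0.27 and 0.18 in that order, and *Cycs*, the mobile electron carrier, was at 0.34 ± 0.22. By edgeR 0 members and 0.0% of all genes were called at FDR 0.05, and 1 member (2.61% of all genes in that direction) had an unadjusted p below 0.05. limma-voom and DESeq2 also called 0 members.

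Mice with the same sex label and replicate number were set side by side as pairs, which the labels do not say share a cage or litter, and these pairs did not move together. The median difference over the 44 nuclear members between HFD and CD was 0.71 for M3, with 40 of 44 higher, and 0.91 for F2, with 43 of 44 higher. In the other pairs it was −0.13 for M1, −0.20 for M2, 0.01 for F1 and −0.18 for F3, with 11, 5, 23 and 4 of 44 higher. The M3 pair contains CD M3 and the F2 pair contains HFD F2, both named above. By *Xist* and Y-linked counts, HFD M2 and HFD F2 were of the sex opposite to their partners CD M2 and CD F2. Without HFD F2 the median logFC was 0.03 and 31 of 49 members were higher (2 more members passed the filter on low counts there). Without HFD M2 and HFD F2 it was 0.058, with 30 of 49 higher, and without CD M3 or HFD M3 it was 0.15 or 0.12, each with 40 of 49 higher. Without CD M3, HFD M2 and HFD F2 together, an omission added after seeing the data, it was −0.01, with 22 of 49 higher. Enterocyte markers were higher in HFD for 6 of 7, with a median logFC of 0.65, and smooth muscle markers were lower for 5 of 5, with a median of −0.32. B-cell markers were higher for 8 of 8, with a median of 1.94, from summed CPM of 5.99 through 15.4 to 65.5 in CD. The part of these cell types in the members' values was not tested.

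**Figure D3:**
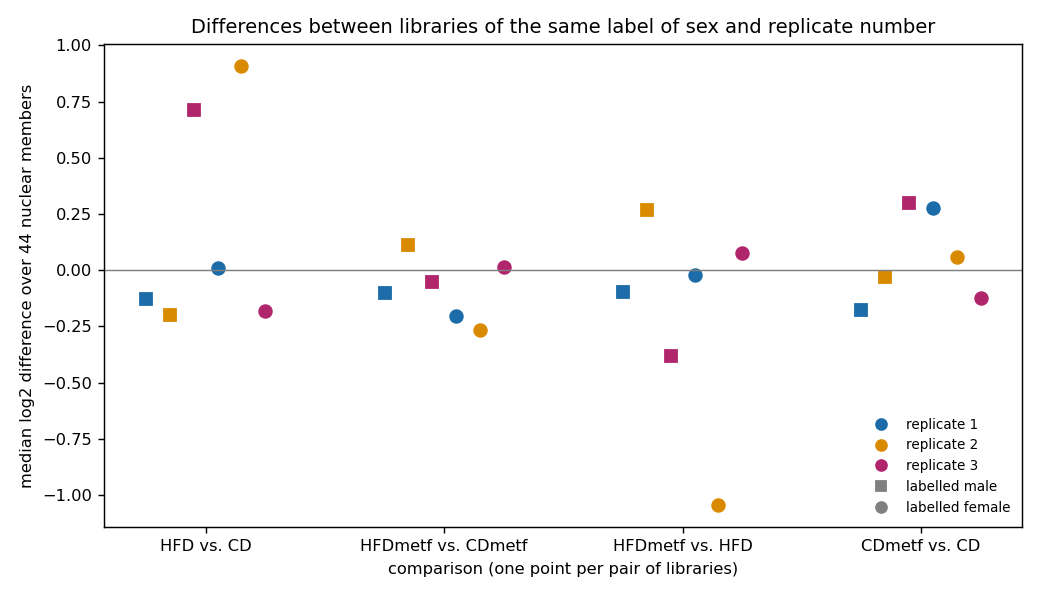
Median log2 difference over the 44 fitted nuclear members for each pair of mice with the same sex label and replicate number, in 4 comparisons. Squares are pairs labelled male and circles pairs labelled female, and colour gives the replicate number. HFD vs. CD runs from −0.20 to 0.91 and HFDmetf vs. HFD from −1.04 to 0.27. These ends are M2 and F2 pairs, in which HFD M2 or HFD F2 goes against its sex label.

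The markers of the set showed the range of outcomes. *Sdha* ran from 282 through a median of 299 to 382 CPM in CD and from 267 through 305 to 372 in HFD, and the groups overlapped almost fully (logFC 0.01 ± 0.11, FDR = 0.999). *Sdhb*, *Sdhc* and *Sdhd* had logFC of 0.22 ± 0.19, 0.18 ± 0.16 and 0.21 ± 0.20. *mt-Co1* ran from 14785 through 17332 to 21715 CPM in CD and from 14349 through 21150 to 36003 in HFD. HFD M3 and HFD F2, at 36003 and 29437, lay above the other HFD libraries, and the difference did not pass (0.42 ± 0.29, FDR = 0.999). *mt-Cytb* was spread over 1605 to 12198 CPM in CD and 1756 to 14658 in HFD, with a logFC of 0.02 ± 0.49.

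*Cox7a2*, a nuclear subunit of complex IV, had the smallest p of the HFD vs. CD comparison. It ran from 35.4 through 51.8 to 81.8 CPM in CD and from 49.7 through 69.8 to 101 in HFD. The groups overlapped and HFD was higher in 4 of 6 pairs (logFC 0.45 ± 0.21, FDR = 0.999). *Uqcr10*, a small subunit of complex III, ran from 21.4 through 33.1 to 42 CPM in CD and from 29.1 through 39.6 to 52.7 in HFD (0.31 ± 0.15, FDR = 0.999). On the lower side the smallest p values were those of *Atp5g2* (−0.10 ± 0.11) and *Atp5k* (−0.35 ± 0.64), both far from the threshold.

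The comparison of metformin with no metformin under the high-fat diet (HFDmetf vs. HFD) used the same HFD libraries, so its values are not independent of those above. Of 47 fitted members, 44 were lower with metformin and 3 higher, with a median logFC of −0.25, while 46.1% of all genes were lower and their median was 0.02. All 4 members of complex II and all 10 of complex III were on the lower side, with 14 of 15 in complex IV and 15 of 17 in complex V. Medians were −0.19, −0.23, −0.29 and −0.22. edgeR called 0 members and 0.0% of all genes at FDR 0.05, limma-voom and DESeq2 called 0 members, and 4 members (2.84% of all genes in that direction) had p below 0.05.

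Here too single libraries carried much of the shift. The F2 pair, with HFD F2 high and HFDmetf F2 low, differed by −1.04, with 1 of 44 members higher, and the M3 pair by −0.38, with 2 of 44. The M2 pair went the other way at 0.27, with 38 of 44 higher, and M1, F1 and F3 stood at −0.10, −0.02 and 0.08. The M2 and F2 pairs again held mice of opposite sex by *Xist* and Y-linked counts. Without HFD F2 the median logFC was −0.13, with 41 of 49 members lower, and without CD M3, HFD M2 and HFD F2 it was −0.14, with 39 of 49 lower. The direction was thus kept at a smaller size. All 7 enterocyte markers were lower in HFDmetf, with a median logFC of −0.70, and all 5 smooth muscle markers higher, with a median of 0.44. Summed enterocyte CPM ran from 18041 through 33923 to 41882 in HFD and from 5783 through 21869 to 30649 in HFDmetf. B-cell markers were lower for 8 of 8 with a median of −2.48, from summed CPM of 12.2 through 24.8 to 278 in HFD and 6.81 through 17.9 to 24.5 in HFDmetf. The part of these cell types in the members' values was not tested.

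*Cox6c*, a small nuclear subunit of complex IV, had the smallest p. It ran from 73.9 through 117 to 216 CPM in HFD and from 74.0 through 90.3 to 118 in HFDmetf, lower in 4 of 6 pairs (logFC −0.61 ± 0.21, FDR = 0.631). *Cox7b*, another small subunit of complex IV, ran from 73.2 through 157 to 242 CPM in HFD and from 65.5 through 99.7 to 149 in HFDmetf (−0.57 ± 0.23, FDR = 0.631). In both genes the HFD libraries covered the whole range of HFDmetf or nearly so.

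*Atp5f1*, subunit b of the stalk that holds the head of ATP synthase in place, ran from 134 through 214 to 279 CPM in HFD and from 116 through 156 to 259 in HFDmetf (−0.39 ± 0.16, FDR = 0.631). *Cycs* ran from 44.8 through 56.1 to 97.4 CPM in HFD and from 21.1 through 47.5 to 70.2 in HFDmetf (−0.47 ± 0.22, FDR = 0.631). *mt-Co1* ran from 11945 through 14933 to 23351 CPM in HFDmetf, with a logFC of −0.57 ± 0.29 against HFD (FDR = 0.631). *Sdha* was again nearly level at −0.09 ± 0.11. The 2 members on the higher side with the smallest p were *Atp5s* (0.12 ± 0.26) and *Cox6b2* (0.16 ± 0.46).

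**Figure D4:**
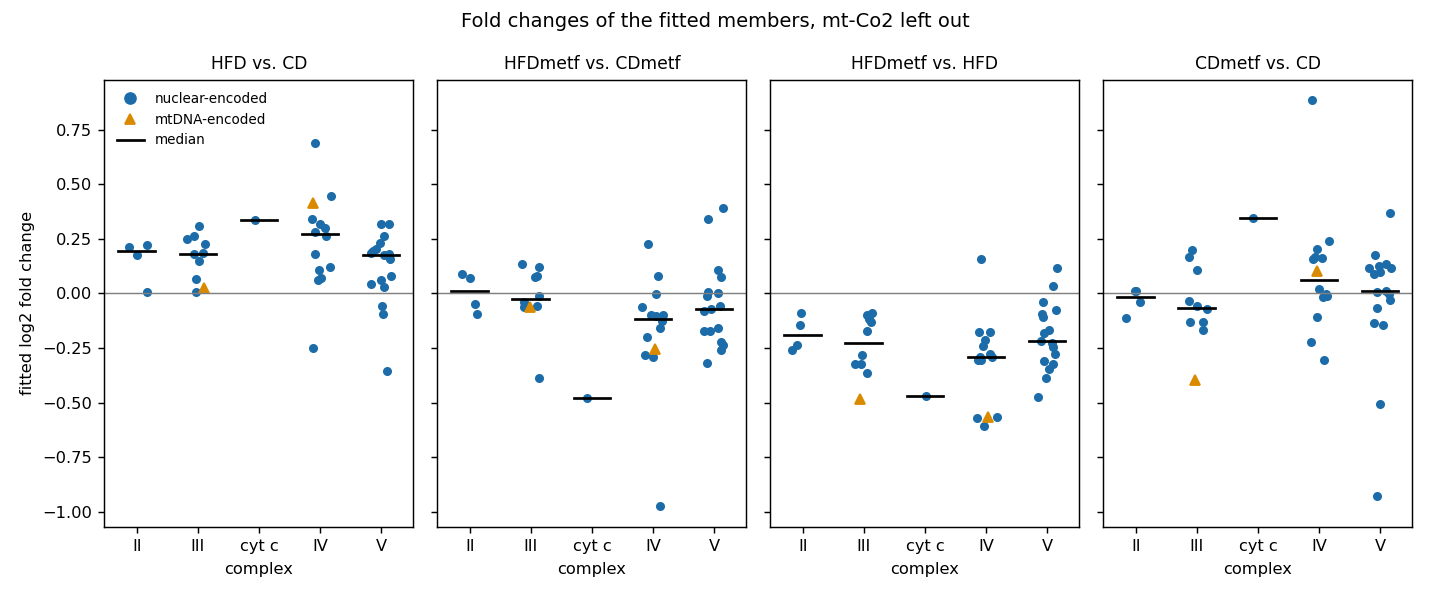
LogFC of the 46 fitted members other than mt-Co2 by complex in 4 comparisons, 1 point per member and a line at the median of each complex. Medians of complexes II to V lie at 0.18 to 0.27 in HFD vs. CD and at −0.29 to −0.19 in HFDmetf vs. HFD, the comparisons that share the HFD libraries.

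The diets were also compared under metformin (HFDmetf vs. CDmetf). Of 47 members 33 were lower in HFDmetf, with a median of −0.06, against a median of 0.03 over all genes, of which 44.5% were lower. edgeR called 0 members and 0.0% of genes, limma-voom and DESeq2 called 0 members, and 4 members (3.87% of all genes in that direction) had p below 0.05. *Uqcrb*, a ubiquinone-binding subunit of complex III, ran from 87.9 through 118 to 141 CPM in CDmetf and from 59.6 through 82.1 to 120 in HFDmetf, and was lower in 6 of 6 pairs (−0.39 ± 0.18, FDR = 0.638). *Cycs* had a logFC of −0.48 ± 0.22 (FDR = 0.635) and *Cox6b2* one of −0.98 ± 0.43 (FDR = 0.631). The fourth was *mt-Co2* (−2.17 ± 0.62, FDR = 0.559), whose counts cannot be read as a level. *Atp5l* and *Cyc1*, the cytochrome c1 of complex III, had the smallest p on the higher side, at 0.34 ± 0.30 and 0.12 ± 0.16.

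In mice on the control diet members had no common direction with metformin (CDmetf vs. CD, which shares libraries with the comparisons above). The logFC was above 0 for 25 of 47 members, with a median of 0.01, against 49.4% of all genes. edgeR called 0 members and 0.0% of genes, limma-voom and DESeq2 called 0 members, and 1 member (2.57% of all genes in that direction) had p below 0.05. This was *Cox6b2*, which ran from 0.527 through 0.950 to 3.17 CPM in CD and from 0.636 through 2.95 to 5.12 in CDmetf (0.89 ± 0.42, FDR = 0.963), close to the detection limit of the shallower libraries. *Cycs* ran from 35.5 through 45.7 to 76.6 CPM in CD and from 45.5 through 56.5 to 93.8 in CDmetf, higher in 6 of 6 pairs (0.35 ± 0.22, FDR = 0.963). CDmetf M3 and CDmetf F3, at 93.8 and 85.9 CPM, and CD F3, at 76.6, are replicate-3 libraries with 177 to 875 *mt-Co2* counts. CD M3, at 35.5, is not. The part of this division in the *Cycs* values was not tested. *Sdha* was at 0.01 ± 0.11 and *mt-Co1* at 0.10 ± 0.29.

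Whether metformin acted differently on the 2 diets was tested as an interaction, the logFC under HFD minus that under CD. The interaction was below 0 for 42 of 47 members, with a median of −0.27, against 45.9% of all genes. edgeR called 0 members and 0.0% of genes at FDR 0.05, limma-voom and DESeq2 called 0 members, and 5 members (2.85% of all genes in that direction) had p below 0.05. *Cycs* had the smallest p among them at −0.82 ± 0.31 (FDR = 0.811), with metformin minus no metformin at 0.35 on CD and −0.47 on HFD. The value on CD includes the replicate-3 libraries set out above. *Atp5f1* was at −0.52 ± 0.22, *Atp5mpl*, a small subunit of the ATP synthase membrane part, at −0.50 ± 0.23, *Cox5a*, a nuclear subunit of complex IV, at −0.48 ± 0.23 and *mt-Co2* at −2.05 ± 0.86. Without HFD F2 the median was −0.15, with 36 of 49 members below 0.

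The inhibitory factor of ATP synthase, *Atpif1*, is not a member by its symbol. It ran from 86.9 through 120 to 366 CPM in HFD and from 77.7 through 100 to 130 in HFDmetf (−0.60 ± 0.27, FDR = 0.631). Other companions of the complexes were read by lists: the factors that assemble them, the genes that copy and read mtDNA, and genes of the matrix, the outer membrane and protein import that follow mitochondrial mass. Since edgeR called 0.0% of all genes at FDR 0.05 in the 4 diet and metformin comparisons, no list could hold a call there.

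In HFD vs. CD, 14 of 17 complex IV factors, 4 of 4 complex V factors and 13 of 17 mass genes were higher, with medians of 0.15, 0.08 and 0.09. Complex III factors were split 3 to 3, complex II factors 1 to 1, and 10 of 17 mtDNA expression genes were higher. In HFDmetf vs. HFD, 1 of 2 complex II factors, 12 of 17 complex IV factors, 3 of 4 complex V factors, 10 of 17 mtDNA expression genes and 10 of 17 mass genes were lower, with medians of −0.07, −0.12, −0.14, −0.01 and −0.04, while 6 of 6 complex III factors were higher, with a median of 0.04. The medians of these lists were nearer to 0 than those of the members. The complex IV factor with the smallest p was *Pet100* in HFDmetf vs. HFD (−0.66 ± 0.30, FDR = 0.631), and the mass gene was *Timm23*, part of the inner membrane import channel, in HFD vs. CD (0.36 ± 0.15, FDR = 0.999). The fitted complex I genes of mtDNA were lower in 5 of 5 in HFDmetf vs. HFD, with a median of −0.36, and in 5 of 5 in CDmetf vs. CD, with a median of −0.38. The smallest p values were those of *mt-Nd4* (−0.45 ± 0.38, FDR = 0.675) and *mt-Nd2* (−0.61 ± 0.73, FDR = 0.997). Library by library the fall on the control diet was not shared. Summed CPM was 30086 in CD M3 and 6044 in CDmetf M3, and 7107 in CD F1 and 4715 in CDmetf F1. In the M1, M2, F2 and F3 pairs it was higher with metformin.

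More members were called between replicate numbers than between diets or treatments. Each number holds 8 libraries, 2 from each group, and the fit compared numbers with group and sex kept in the model. In replicate 3 vs. 1, 11 of 47 members passed FDR 0.05, against 16.8% of all genes: 8 were higher (9.92% of all genes) and 3 lower (6.86%). In replicate 3 vs. 2, 3 members passed, all higher (8.26% of all genes in either direction, 4.2% higher and 4.06% lower). They were *Cox7c*, *Atp5f1* and *mt-Co2*, the last with counts that give no level. In replicate 2 vs. 1 edgeR called 0 members and 0.311% of all genes, with 11 members at p below 0.05 (19.4% of all genes) and 3 called by DESeq2 (*Atp5b*, *Uqcrb* and *mt-Cytb*). The smallest p values of replicate 2 vs. 1 were those of *Uqcrb* (0.55 ± 0.16, FDR = 0.0955) and *mt-Cytb* (1.51 ± 0.44, FDR = 0.0955) on the higher side, and of *Atp5b* (−0.36 ± 0.14, FDR = 0.170) and *Atp5d* (−0.28 ± 0.12, FDR = 0.190) on the lower.

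*Uqcrb* ran from 59.6 through 78.2 to 90.5 CPM in replicate 1, from 76.6 through 107 to 230 in replicate 2 and from 98.8 through 125 to 141 in replicate 3. Replicates 1 and 3 did not overlap, and all 8 pairs were higher in 3 (0.63 ± 0.16, FDR = 0.0106). *Cox7c*, a small subunit of complex IV, ran from 40.6 through 48 to 57.4 CPM in replicate 1, from 45.1 through 51.3 to 88.0 in replicate 2 and from 43.3 through 85.5 to 101 in replicate 3. It rose in 3 vs. 1 (0.66 ± 0.14, FDR = 0.00378) and in 3 vs. 2 (0.51 ± 0.14, FDR = 0.0382), but the latter call was lost in 9 of 24 single omissions. Within replicate 3 it had 85.1 to 101 CPM in the 5 libraries with 177 to 875 *mt-Co2* counts, and 43.3 in CD M3, 49.8 in HFDmetf M3 and 79.5 in HFD M3. *Atp5f1* was higher by 0.45 ± 0.14 (FDR = 0.0279) in 3 vs. 1 and by 0.44 ± 0.14 (FDR = 0.0481) in 3 vs. 2. The 3 vs. 1 call was lost in 8 of 24 single omissions and with no filter on low counts, and the 3 vs. 2 call in 15 of 24 and without HFD M2 and HFD F2.

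*Atp5d*, the delta subunit of ATP synthase, went the other way. It ran from 247 through 285 to 315 CPM in replicate 1, from 163 through 231 to 338 in replicate 2 and from 160 through 186 to 245 in replicate 3. All 8 pairs were lower in 3 than in 1 (−0.55 ± 0.12, FDR = 0.00333), and the ranges of 1 and 3 nearly met without overlap. *Cox6b2* also fell, from a median of 2.38 CPM to 0.824 (−1.53 ± 0.37, FDR = 0.00771), with replicate 1 between 0.958 and 4.91 and replicate 3 between 0.487 and 1.65. *Uqcrq*, a small subunit of complex III, was the third member called lower (−0.45 ± 0.15, FDR = 0.0452), but the call was lost with RLE scaling, with scaling on nuclear genes, with no filter and in 18 of 24 single omissions. In replicate 3 vs. 2 the lower side held no call, and its smallest p values were those of *Cox6b2* (−1.21 ± 0.41, FDR = 0.0661) and *Atp5o*, which encodes the protein that joins stalk and head (−0.60 ± 0.22, FDR = 0.0824).

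*Cycs* rose from a median of 45.4 CPM in replicate 1 to 73.4 in replicate 3 (0.60 ± 0.19, FDR = 0.0331), with ranges of 32.7 to 50.8 and 35.5 to 93.8. *Atp5j*, another stalk subunit, rose by 0.53 ± 0.16 (FDR = 0.0262) and *Atp5mpl* by 0.48 ± 0.14 (FDR = 0.0240). *mt-Co2* was called as well (4.61 ± 0.54, FDR = 6.31e-05), through the 5 libraries whose counts were given above.

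Base composition moved with these calls. GC content was taken from the longest transcript of each gene. The 8 members higher in replicate 3 than in 1 had a median of 39.7% and the 3 lower ones of 55.7%, with 49.7% in the 36 not called. Over all genes the medians were 41.2%, 57.0% and 49.7%. The part of GC content in the members' calls was not tested. Leaving out CD F3, CDmetf M3 or HFDmetf F3 left 6 members called in replicate 3 vs. 1, and leaving out CDmetf F3 left 7. Without HFD F1, 5 of the 11 member calls remained, and 1360 of all genes were called. *mt-Atp6* and *mt-Co3*, whose counts give no level, were called there in addition. The calls lost in one or more single omissions were those of *Cycs*, *Uqcrq*, *Atp5f1*, *Atp5j*, *Atp5mpl* and *mt-Cytb*. In replicate 3 vs. 2, 1 member was called without CD F3, CDmetf M3, CDmetf F3 or HFDmetf F3. This was *mt-Co2*, so no member with a readable level stayed called there. Without CD M3, 12 members were called, *mt-Co2*, *mt-Co3* and *mt-Atp6* among them, with 3058 of all genes.

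**Figure D5:**
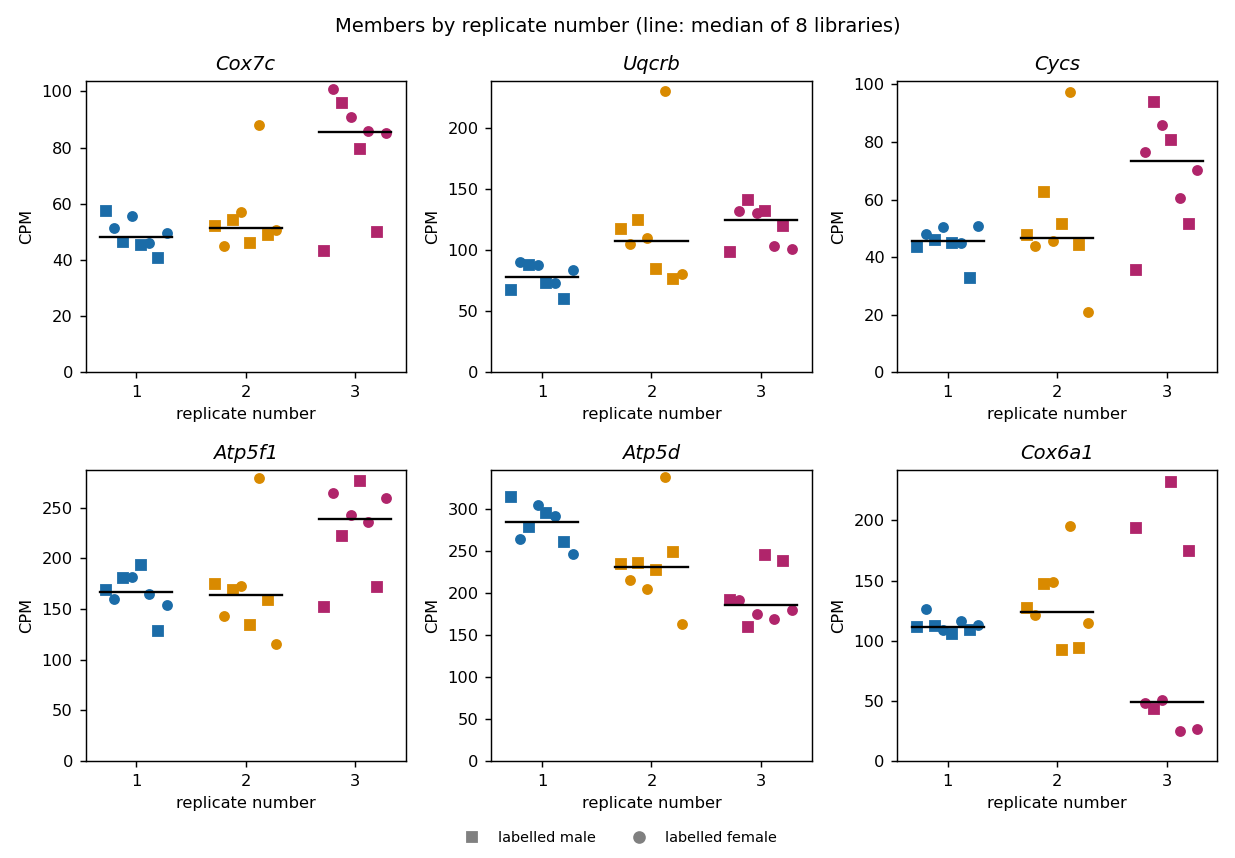
CPM of 6 nuclear members by replicate number, 8 libraries each, with a line at the median. Uqcrb and Atp5d in replicates 1 and 3 do not overlap, and Cox6a1 in replicate 3 lies at 24.7 to 50.7 in 5 libraries and at 174 to 232 in the other 3.

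*Cox6a1*, named here after its values were seen, was the least even of the abundant nuclear members. In replicate 1 it ran from 105 to 126 CPM and in replicate 2 from 92.2 to 196. In replicate 3 it had 24.7 CPM in HFD F3, 26.6 in HFDmetf F3, 43.1 in CDmetf M3, 48.1 in CD F3 and 50.7 in CDmetf F3, but 194 in CD M3, 174 in HFDmetf M3 and 232 in HFD M3. The 5 low libraries were those with 177 to 875 *mt-Co2* counts. Since replicate 3 held both levels, the comparison with replicate 1 did not pass (−0.42 ± 0.38, FDR = 0.460). The longest transcript of *Cox6a1* has a GC content of 62.7%.

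*mt-Cytb* showed a different division. It ran from 1558 through 1809 to 2643 CPM in replicate 1, from 2013 through 5643 to 8150 in replicate 2 and from 1756 through 2957 to 14658 in replicate 3. It was higher in 7 of 8 pairs in replicate 3 vs. 1 (1.50 ± 0.46, FDR = 0.0289). The highest values were 14658 in HFD M3, 12198 in CD M3 and 10005 in HFDmetf M3, replicate-3 libraries in which *mt-Co2* stayed at 4, 3 and 1 counts. The mitochondrial ribosomal RNA *mt-Rnr2* was at 31803, 193010 and 24899 CPM in these 3 libraries, against 1067 to 22182 elsewhere. Reads on no single gene were 60.8%, 75.7% and 62.6% of all reads there, against 35.5% to 71.4% elsewhere. The part of these measures in the *mt-Cytb* call was not tested. *mt-Co1* did not follow *mt-Cytb* in step: the ratio of their CPM ran from 1.21 to 10.8 over the libraries. All 5 fitted complex I genes of mtDNA were higher in replicate 2 than in 1, with a median logFC of 1.66, and in 3 than in 1, with a median of 1.45.

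Upstream sequence was read for the nuclear members, since many of them moved together across libraries. Nuclear respiratory genes are known to share binding motifs for the activators NRF1 and NRF2 (the latter of the ETS family) and for YY1 and CREB. A RefSeq promoter (GRCm38.p6, 250 bases before to 50 after the start) was matched by symbol for 34 of 47 nuclear members. The NRF1 core GCATGCGC, on either strand, was found in 8 of them (23.53%), against 2.805% of all 27025 promoters. The ETS motif CCGGAAG was found in 11 (32.35%, against 9.121%), the YY1 motif AAGATGG in 2 (5.882%, against 6.475%) and the CREB element TGACGTCA in 2 (5.882%, against 1.876%). The NRF1 core was in *Sdhb*, *Uqcr11*, *Uqcrc1*, *Cox6a1*, *Atp5g2*, *Atp5k*, *Atp5l* and *Cycs*, members that differ widely in level and in spread. A match describes letters and is not evidence of binding.

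The 250 bases upstream of *Cycs*, the member with the smallest interaction p, hold a CREB element and an NRF1 core (chr6:50566570-50566819, − strand). Those of *Cox6a1* hold NRF1 cores on both strands, overlapping in 10 letters, and an ETS motif on the opposite strand (chr5:115348959-115349208, − strand). Both are printed 5′ to 3′ with the motifs in capitals.
Cycs: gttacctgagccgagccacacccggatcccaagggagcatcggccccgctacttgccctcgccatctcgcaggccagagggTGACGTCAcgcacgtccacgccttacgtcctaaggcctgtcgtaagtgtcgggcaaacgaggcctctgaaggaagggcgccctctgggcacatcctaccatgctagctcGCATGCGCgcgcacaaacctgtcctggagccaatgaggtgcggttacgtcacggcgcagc
Cox6a1: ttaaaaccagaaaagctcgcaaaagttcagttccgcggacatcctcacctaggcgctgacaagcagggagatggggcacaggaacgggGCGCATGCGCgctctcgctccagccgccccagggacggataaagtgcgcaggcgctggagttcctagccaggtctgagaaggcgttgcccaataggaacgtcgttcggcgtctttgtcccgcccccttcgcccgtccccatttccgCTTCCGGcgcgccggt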

How the data were processed

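Per the labels, total RNA of the distal small intestine was depleted of ribosomal RNA, made into directional libraries and read as paired ends of 100 bases. The authors trimmed reads with Trimmomatic 0.39 and aligned them with STAR 2.5.3a to GRCm38. They deposited raw read counts per gene for 24 libraries, 1829690 to 40606442 on genes. Strand setting and annotation release are not given in the sources used here, and all 55536 IDs matched GENCODE vM21. Rows for reads on no single gene (35.5% to 75.7% of reads) were left out. Groups and replicate numbers came from the labels.

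Genes were filtered with filterByExpr over the 4 groups, scaled by TMM and fitted with edgeR 4.0.16 (R 4.3.3; group, sex and replicate number; 17 residual degrees of freedom), with quasi-likelihood tests and Benjamini-Hochberg FDR over 13505 genes. limma 3.58.1 (voom), DESeq2 1.42.0, other scalings and filters, no replicate block and each library left out were alternatives. Omission of CD M3, HFD M2 and HFD F2 together was added after seeing the data. Scripts were tested on simulated data.

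Members, companion lists and marker lists were chosen with earlier results of these data known. Named with values were the mtDNA-encoded and *Sdh* members, the 2 members of smallest p per direction in each comparison, the most abundant member per complex, tissue-restricted isoforms, *Atpif1* and the gene of smallest p in a described list. Other members at p below 0.05 or past FDR 0.05, and those at the ends of a range of levels, spread or shared windows, were added after their values were seen.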

Additional observations from a re-analysis of the deposited data

Results flagged for a closer look

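Dixon's ratio of gap to range was read at the 95% limit for 6 libraries in 96 group tests over 24 named members. Many of these members were named for small p values in these data, so the nominal rate of 1 in 20 does not hold for them. In 8 tests 1 library lay apart from the other 5. These 8 fell in 4 libraries, with 3 in CD F3, 2 in HFD F2, 2 in HFDmetf F3 and 1 in CDmetf F1. *Cox7c* was at 100.72 CPM in CD F3 against 57.4 or less in the other CD libraries, and at 85.117 in HFDmetf F3 against 50.7 or less. *Cycs* was at 76.617 in CD F3 against 48.1 or less. In HFD F2, *Cyc1* was at 203.71 against 153 or less and *Uqcrb* at 230.07 against 132 or less. *Sdhc* was at 162.51 in CDmetf F1 against 120 or less. *mt-Co2* was at 12.024 in CD F3 and 6.0031 in HFDmetf F3, 2 of the 5 libraries with 177 to 875 of its counts. The cause was not tested.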

How the results depend on the processing

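In the 5 diet and metformin comparisons, members called at FDR 0.05 stayed at 0 under every alternative run. Genes called by edgeR also stayed at 0, with no replicate block, under the other scalings and filters and without each library in turn, while DESeq2 called 12 genes in HFD vs. CD, 4 in CDmetf vs. CD and 4 in the interaction. Deviations of log2 CPM from the group mean were correlated between libraries of different groups. Libraries that shared a replicate number had a mean of 0.130 (72 pairs, −0.478 to 0.752), and those of different number −0.0644 (144 pairs). Deviations sum to 0 within a group, so these means are tied and the second is not a separate result. The replicate number stood in the model as a block, but not every pair of libraries that shared one correlated above 0.1. With no replicate block the members at unadjusted p below 0.05 numbered 1 in HFDmetf vs. CDmetf, 2 in HFDmetf vs. HFD, 0 in CDmetf vs. CD and 1 in the interaction. Leaving out each library in turn, that number ran from 0 to 5 in HFD vs. CD, 1 to 6 in HFDmetf vs. CDmetf, 0 to 18 in HFDmetf vs. HFD (18 without HFD F3), 0 to 3 in CDmetf vs. CD and 1 to 9 in the interaction. The share of all genes at that p is not given for these fits, so these numbers cannot be read as particular to the members. The median logFC of the fitted members ran from 0.035 (without HFD F2) to 0.27 (without CD F3) in HFD vs. CD and from −0.35 (without HFD F3) to −0.13 (without HFD F2) in HFDmetf vs. HFD. It ran from −0.13 to −0.035 in HFDmetf vs. CDmetf, from −0.043 (without CD M3) to 0.094 in CDmetf vs. CD and from −0.35 to −0.15 in the interaction.

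Calls between replicate numbers moved more. In replicate 2 vs. 1 the genes called were 620 by DESeq2 (3 members), 18 with RLE scaling, 11 with no filter, 129 with at least 10 counts in every library, 15 with scaling on nuclear genes, 0 without HFD M2 and HFD F2 and 64 without CD M3, HFD M2 and HFD F2. In replicate 3 vs. 1 limma-voom called 4114. In replicate 3 vs. 2 limma-voom called 1848 (5 members), DESeq2 2324 (6 members) and edgeR with no filter 5 members, with 261 genes without HFD M2 and HFD F2 and 2858 genes (16 members) without CD M3, HFD M2 and HFD F2. With each library left out in turn, the range was 0 to 628 genes (628 without HFDmetf M1) and 0 to 1 members in replicate 2 vs. 1, 1360 (without HFD F1) to 3139 genes (without HFDmetf M3) and 6 to 14 members in replicate 3 vs. 1, and 148 (without HFDmetf F3) to 3058 genes and 1 to 12 members in replicate 3 vs. 2, where both maxima came without CD M3.

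Signs were followed one by one only for the members named or called in each comparison. Among these they turned for 5 members, none past FDR 0.05 in the comparison concerned. More turned among all fitted members, since in HFD vs. CD 42 of 47 were higher in the reported fit. Without CD M3, HFD M2 and HFD F2, 22 of 49 were. For *Sdha* in HFD vs. CD the logFC was −0.0060 with at least 10 counts, −0.062 without HFD M2 and HFD F2, −0.13 without CD M3, HFD M2 and HFD F2, and −0.049 to 0.076 with each library left out. In CDmetf vs. CD *Sdha* was at −0.00022 and −0.046 without those sets of libraries, and at −0.039 to 0.055 with each left out, and its interaction was 0.013 without CD M3, HFD M2 and HFD F2. *mt-Co1* in CDmetf vs. CD was −0.011 without these 3 libraries and −0.00086 to 0.13 with each left out. *Atp5k* in HFD vs. CD, −0.35 in the reported fit, was 0.18 without the 3 libraries and −1.01 to 0.086 with each left out. In HFDmetf vs. HFD *Atp5s* was −0.028 by limma-voom and −0.12 to 0.20 with each left out, and *Cox6b2*, 0.16 in the reported fit, was −0.15 to 0.29. The causes were not tested. Depth limited the isoforms near 1 CPM, since 3 counts equal 1.71 CPM in the shallowest library.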

Other observations

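Markers of other cells that whole ileum can hold were read by lists with the same fit. No gene at all passed FDR 0.05 by edgeR in HFD vs. CD or HFDmetf vs. HFD, so no list could hold a call. In HFD vs. CD, 5 of 6 adipocyte markers were lower, with a median logFC of −1.89, and 3 of 3 fitted T-cell markers were higher, with a median of 0.40. In HFDmetf vs. HFD, 6 of 6 adipocyte markers were higher, with a median of 1.43, and 3 of 3 T-cell markers lower, with a median of −0.77. Proliferating crypt markers were higher for 5 of 5 in HFDmetf vs. HFD, with a median of 0.35, and split 2 to 3 in HFD vs. CD. In HFD vs. CD, 3 of 5 general epithelial markers and 1 of 6 ileum markers were higher, with medians of 0.01 and −0.18, and in HFDmetf vs. HFD 1 of 5 and 3 of 6, with medians of −0.14 and −0.05. Plasma cell markers had 2 of 3 higher in both comparisons (0.16 and 0.02). The 2 fitted striated muscle markers were lower in HFD vs. CD (median −0.63) and higher in HFDmetf vs. HFD (0.36), as was the 1 fitted marker of pancreatic acinar cells (−0.23 and 0.69).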
